A study of Mus musculus with 4 samples.

Results

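mmu-miR-21, mmu-miR-132, mmu-miR-212, mmu-miR-221 and mmu-miR-222, written below without the species prefix, have been linked to gonadotropin, cAMP or androgen signalling in other tissues. They were taken by name, by a rule that uses no measured value, from an array that carries 567 mouse miRNAs, and all 5 were on it. Sertoli cells, the somatic cells that nurse germ cells in the seminiferous tubule and carry the androgen receptor, were purified from the testes of adult B6129 male mice, and RNA came from pooled cells, of 5 to 7 mice by the general RNA protocol in the labels. Sham mice had a sham treatment (1 array). Flut+Acy mice received the androgen receptor blocker flutamide together with acyline, an antagonist of gonadotropin-releasing hormone that lowers LH and FSH and with them testicular testosterone (2 arrays). Flut+Acy+T mice received both drugs and testosterone (1 array). The drugs reach the whole animal, so gonadotropin loss and androgen loss come together in Flut+Acy, and testosterone was given back with acyline still present. The study describes the array RNA as pooled for each group and names no second Flut+Acy pool, so its 2 arrays may share one, and any p-value therefore measures only the spread between those 2 arrays, which may be technical.

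miR-132 and miR-212 lie side by side and are cut from 1 primary transcript, which the cAMP-dependent factor CREB drives in neurons and which LH induces in granulosa cells, the ovarian counterpart of Sertoli cells. miR-21, which lies in the Vmp1 gene, protects many cell types from apoptosis, is induced by LH in granulosa cells and answers androgen in prostate cancer cells. miR-221 and miR-222 form a cluster on the X chromosome and act on the cell cycle inhibitor p27 and the receptor Kit.

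The mature sequences are shown because the 5 miRNAs fall into 3 seed families, so that members of a pair can be read by the same target sites. They are RefSeq sequences (GRCm38.p6), 5′ to 3′, matched for 5 of 5 miRNAs, with the seed, bases 2 to 8, in capitals.
miR-21: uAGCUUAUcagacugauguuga
miR-132: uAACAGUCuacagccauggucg
miR-212: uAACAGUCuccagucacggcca
miR-221: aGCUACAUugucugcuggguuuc
miR-222: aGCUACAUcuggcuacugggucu
miR-132 and miR-212 share their seed and 17 of 22 positions in all, with a longest shared run of 9 bases. miR-221 and miR-222 share their seed and 11 of 23 positions, with a longest run of 8 bases. In the RefSeq table the seed of miR-21 is also found in miR-21c and that of miR-221 and miR-222 in miR-1928, neither of which is on the array by that name.

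Each of the 5 was read by 2 probes with 10 spots each. In the mm9 coordinates of the scanner files, the 2 miR-21 probes cover chr11:86397622-86397641, the miR-132 probes chr11:74987231-74987246 and the miR-212 probes chr11:74986953-74986966. The miR-221 probes cover chrX:18723433-18723452 and the miR-222 probes chrX:18724029-18724042. In the RefSeq annotation Mir21a overlaps Vmp1, whereas Mir132 and Mir212 overlap no other gene and lie between Hic1 and Ovca2, and Mir221 and Mir222 overlap none and lie between Dipk2b and Tex13c3.

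The arrays differed in what they could detect. Of the 567 miRNAs, the scanner software called 193 detected for Sham, 275 and 270 for the Flut+Acy pair and 102 after testosterone replacement. The lowest detected total signal was 2.67 units for Sham and 0.766 and 1.11 for the Flut+Acy pair, but 238 after testosterone replacement, where 535 spots were marked as nonuniform against 0 to 4 on the others. Of the 2 listed miRNAs of Sertoli cells, miR-202-3p was detected on Sham and Flut+Acy, miR-202-5p was detected only on the Flut+Acy pair (21.5 and 27.0 units, against 0.509 for Sham), and neither was detected on Flut+Acy+T. The 5 miRNAs of a list for germ cells (miR-34 and miR-449 families) summed to 475 units for Sham, 7121 and 7385 for the Flut+Acy pair and 3472 after testosterone replacement, with miR-449b detected on none. After the quantile normalization used below the same sums were 1659, 7062, 5913 and 2480. The part of germ cells in the results below was not tested. In such pooled RNA, fewer cells of a type and less RNA per cell cannot be told apart.

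The 5 miRNAs ranged from one of the clear signals of the array to none. The total signal of a miRNA, a sum over its probes in intensity units with the scanner's own error, was detected on all 4 arrays for miR-21, on the first 3 for miR-221, on both Flut+Acy arrays for miR-212, on 1 Flut+Acy array for miR-132 and on none for miR-222. Thus each shared-seed pair had 1 partner that the arrays measured under Flut+Acy and 1 at or near the limit. No spot of the 5 was saturated.

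miR-21 gave total signals of 1660 ± 146 units for Sham, 2760 ± 244 and 2774 ± 238 for the Flut+Acy pair and 3613 ± 336 after testosterone replacement (scanner error). All 20 spots were well above background on every array. The 2 Flut+Acy arrays were nearly alike, both lay above Sham, and Flut+Acy+T was the highest. Its 2 probes moved together, with Flut+Acy over Sham ratios of 1.67 and 1.67.

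miR-212 gave 6.49 ± 2.52 units for Sham, 37.7 ± 3.89 and 36.4 ± 4.91 for the Flut+Acy pair and 19.2 ± 124 after testosterone replacement. It was detected on both Flut+Acy arrays and on neither of the other 2. Of its 20 spots, 15 and 12 were well above background on Flut+Acy and 1 on Sham. Both probes were higher on each Flut+Acy array than on Sham, with medians of 14.6 and 11.4 units against 2.05 for one and 39.4 and 43.4 units against 6.57 for the other. The spots of the second probe did not overlap between Sham, where the highest was 8.46, and Flut+Acy, where the lowest was 30.3. Such spots are repeats within 1 array, before normalization, and overlap was not counted for other probes, so this describes the probe only.

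miR-132, its partner from the same transcript, gave 0.641 ± 2.46 units for Sham, 6.28 ± 2.70 and 7.86 ± 3.94 for the Flut+Acy pair and -60.9 ± 123 after testosterone replacement. The software called it detected on the first Flut+Acy array and not on the second, although both the second value and its error were the higher. Only 1 of its 20 spots on that first array was well above background, and none on the others. The signal was at the limit of the arrays everywhere.

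miR-221 gave 14.7 ± 2.69 units for Sham, 18.8 ± 2.99 and 22.8 ± 4.23 for the Flut+Acy pair and 90.2 ± 124 after testosterone replacement. It was detected on all but Flut+Acy+T, and its Sham and Flut+Acy signals lay close to each other relative to their errors. Its probes differed in behaviour. One had median spot signals of 10.1 on Sham and 9.43 and 10.9 on Flut+Acy, whereas the other had 10.5 on Sham and 19.3 and 22.1 on Flut+Acy. The Flut+Acy signal of the gene therefore rests mostly on 1 probe.

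miR-222 gave 0.75 ± 2.46 units for Sham, 0.204 ± 2.63 and 5.76 ± 3.90 for the Flut+Acy pair and 84.2 ± 124 after testosterone replacement, and was not detected on any array. No fold can be given for it. For miR-132, miR-212, miR-221 and miR-222 the error on Flut+Acy+T, 123 to 124 units, was larger than any signal they reached on the other arrays, and all of those signals lay below the 238 units of the lowest detected miRNA there.

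**Figure D1:**
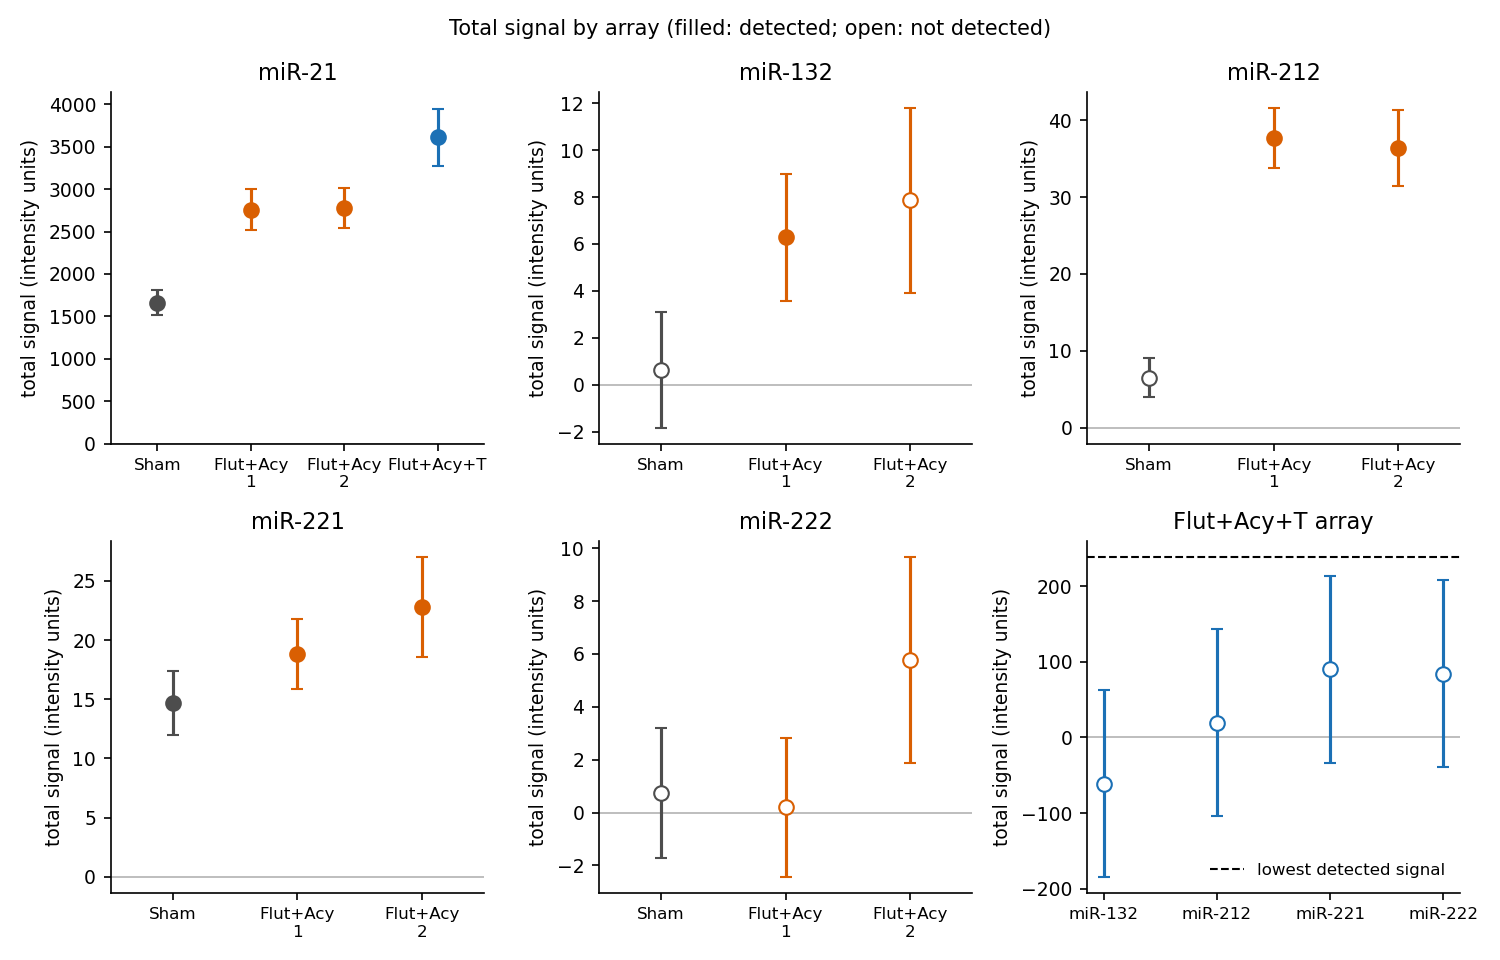
Total signal in intensity units with the scanner's error (bars) for the 5 miRNAs on each array; the last panel gives the Flut+Acy+T array for the 4 dim miRNAs, with its lowest detected signal of 238 units as a dashed line. Filled points were called detected: miR-21 on 4 arrays, miR-221 on 3, miR-212 on the 2 Flut+Acy arrays, miR-132 on 1 and miR-222 on none.

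**Figure D2:**
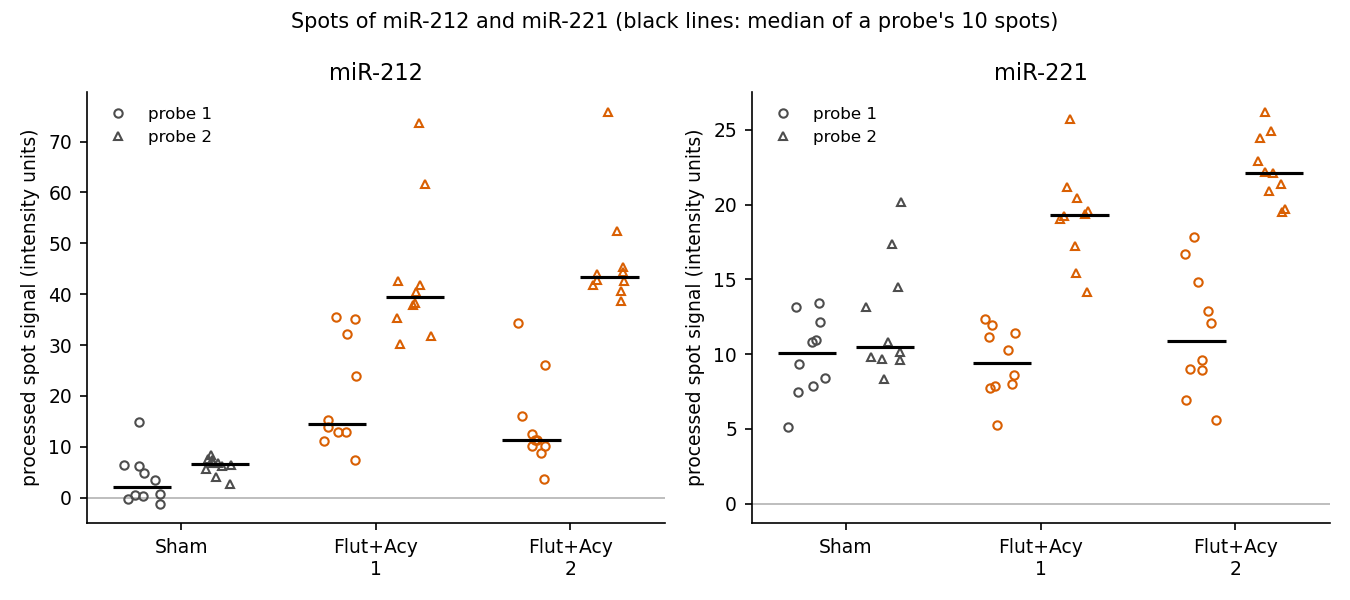
Processed signals in intensity units of the 20 spots of miR-212 and of miR-221 on the Sham and Flut+Acy arrays, by probe, with the median of each probe's 10 spots as a black line. Both miR-212 probes were higher on Flut+Acy, while 1 miR-221 probe stayed at 9.43 to 10.9 units and the other was at 10.5 on Sham and 19.3 and 22.1 on Flut+Acy.

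Signals of most miRNAs were higher on Flut+Acy than on Sham before any normalization, so the 5 have to be read against that shift. Over the 189 miRNAs that Sham and the 2 Flut+Acy arrays all detected, the median ratio to Sham was 2.68 on the first and 3.15 on the second Flut+Acy array. miR-21 had ratios of 1.66 ± 0.207 and 1.67 ± 0.205, and 23.3% and 15.9% of the 189 had lower ones. miR-221 had ratios of 1.28 ± 0.310 and 1.55 ± 0.404, with 9.52% and 8.99% of the 189 lower. Both thus increased less than most miRNAs did. miR-212 was 5.80-fold and 5.60-fold above its own undetected Sham signal (6.49 ± 2.52), which is more than the median ratio on either array. With that error neither ratio is a lower bound, and miR-212 is not one of the 189. Many of the 189 had higher ratios: as a mean log2 ratio of both arrays, theirs reached 5.26, beside 2.51 for miR-212. miR-132 on its detected array exceeded the lowest detected Sham signal at least 2.35-fold, below the median ratio of 2.68.

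**Figure D3:**
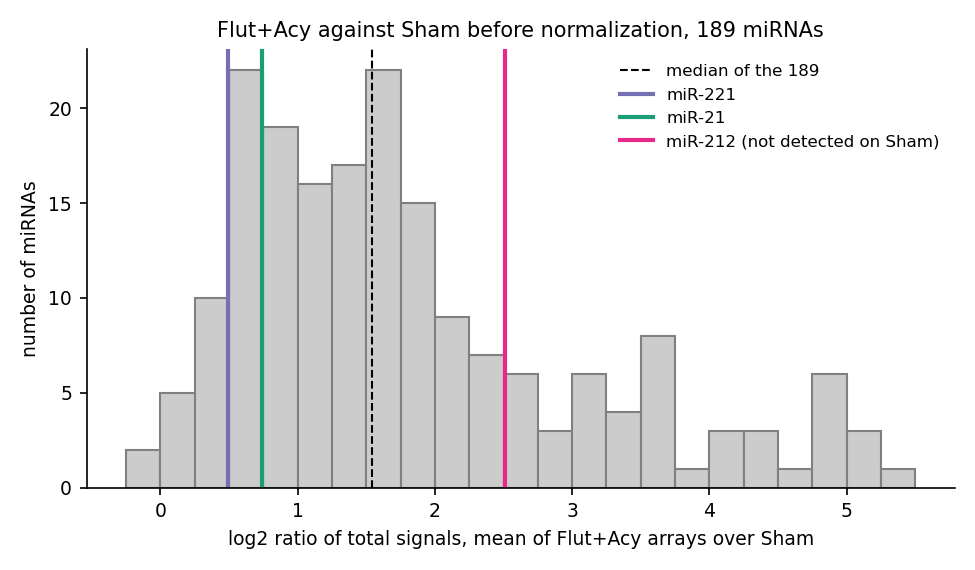
Number of miRNAs by the log2 ratio of total signals before normalization, mean of the 2 Flut+Acy arrays over Sham, for the 189 miRNAs detected on all 3 arrays; the dashed line is their median, 1.54. miR-221 (0.49) and miR-21 (0.74) lie below the median and miR-212 (2.51, not detected on Sham) lies above it. miR-212 is not one of the 189, whose log2 ratios reached 5.26.

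After quantile normalization, which gives all arrays the same distribution of signals, the question of whether the treatment changed the 5 was put relative to the other miRNAs. miR-21 and miR-221 fell in Flut+Acy and miR-212 did not pass the test. miR-221 went from a normalized signal of 97.1 on Sham to 36.0 and 34.0 on Flut+Acy, a log2 difference of -1.47 ± 0.06 (SE), or 2.78-fold lower (limma adjusted p = 0.0224). Normalization raised its Sham signal from 14.7 ± 2.69 to 97.1 units, and its Flut+Acy signals from 18.8 and 22.8 to 36.0 and 34.0. The fall thus arises with the normalization, and the SE leaves out the scanner error of the 1 Sham array. The 2 normalized Flut+Acy values were 0.08 apart on the log2 scale, but these arrays may share a pool, so their closeness does not measure the distance to Sham. miR-21 went from 3600 on Sham to 2537 and 2414 on Flut+Acy, a log2 difference of -0.54 ± 0.05, or 1.45-fold lower (limma adjusted p = 0.0457). This change was smaller, and it no longer passed when the Flut+Acy+T array was left out of the normalization and fit (-0.57, limma adjusted p = 0.0515), with mean spot signals (-0.55, limma adjusted p = 0.0550) or with no filter on detection (limma adjusted p = 0.147). In the authors' table the row named miR-21 gave -0.31. That row follows spots pooled over all names that begin with miR-21, as described below. It does not measure miR-21 alone and says nothing about this fall. With no filter miR-221 did not pass either (limma adjusted p = 0.115), and the single-factor analysis of variance of the methods passed neither, even before adjustment. The size of both falls depended on the scaling. For miR-221 the log2 difference was -0.86 with scaling to the 75th percentile of the miRNAs that every array detected (limma adjusted p = 0.0444) and -0.35 with normexp background correction (limma adjusted p = 0.0252), both short of 2-fold. For miR-21 it was -1.44 with the 75th percentile of all miRNAs (limma adjusted p = 0.0236), past 2-fold. The normexp correction adds an offset of 50 units to each spot. No miR-221 spot on Sham or Flut+Acy exceeded 26.2 units, so its difference there is drawn towards 0. Both falls are relative: without normalization the differences were positive, 0.74 for miR-21 and 0.49 for miR-221. Among listed miRNAs of other cells, normalized signals moved in both directions: the 4 of smooth muscle summed to 4560 for Sham against 2480 and 2622, with 3 of 4 at least 2-fold lower, and the 6 of blood cells to 1032 against 489 and 492, with 2 of the 5 detected that much lower. The 2 of endothelium summed to 1647 for Sham against 2062 and 1938, and the germ cell sums were higher in Flut+Acy as well. Before normalization the smooth muscle sums were 1616 against 2375 and 2844 and the blood cell sums 236 against 382 and 432. The part of such cells in the falls of miR-21 and miR-221 was not tested.

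miR-212 had normalized signals of 47.2 on Sham, where it was not detected, and 64.3 and 53.8 on Flut+Acy. All that can be given is a ratio of 1.25 over that undetected signal, a log2 difference of 0.32 ± 0.19 (limma adjusted p = 0.319), which is no lower bound. The normalization raised its undetected Sham signal from 6.49 to 47.2. miR-212 entered the fit only through the Flut+Acy arrays, the group where it was high, and its Sham value is undetected, so a p-value for it supports nothing. Over the 12 alternatives, which share that limit, the log2 difference ran from 0.02 to 2.51 and the limma adjusted p from 0.00518 to 0.617. The 0.02 came with normexp, whose offset of 50 units exceeds every miR-212 spot on Sham (at most 14.9). For miR-132 the normalized Flut+Acy signals, 9.07 and 4.0, gave no fold over the detection limit of Sham.

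These counts were set against the whole array. Of the 4 that either group detected, 0 reached a 2-fold higher signal in Flut+Acy and 1, miR-221, a 2-fold lower one, where 22.6% of the 283 miRNAs that either group detected were higher and 16.6% lower. limma passed 2 of the 4 fitted at an adjusted p under 0.05, miR-21 and miR-221, and it passed 54% of the 298 miRNAs fitted, 25.5% as higher and 28.5% as lower; both of these 2 were lower. For 55 of the 298, normalization and the floor left the Flut+Acy pair tied. The SE of these 55, 0.007, reflects no measured spread, so almost any difference passes. The 54% therefore cannot be read as a rate of change, and the limma percentages of the later comparisons share this limit. miR-21 and miR-221 are not among the 55, but their SE is not free of them. limma draws each standard deviation towards a value fitted over all 298, ties included, which was 0.0100. The pair standard deviations of miR-21 and miR-221 were 0.0508 and 0.0597, so this lowered their SE. Whether they pass without the tied miRNAs was not tested. miR-132 entered that fit only through its 1 detected array, and miR-222 did not enter it. The median log2 difference of the 4 was -0.11 and that of the 283 was -0.18.

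**Figure D4:**
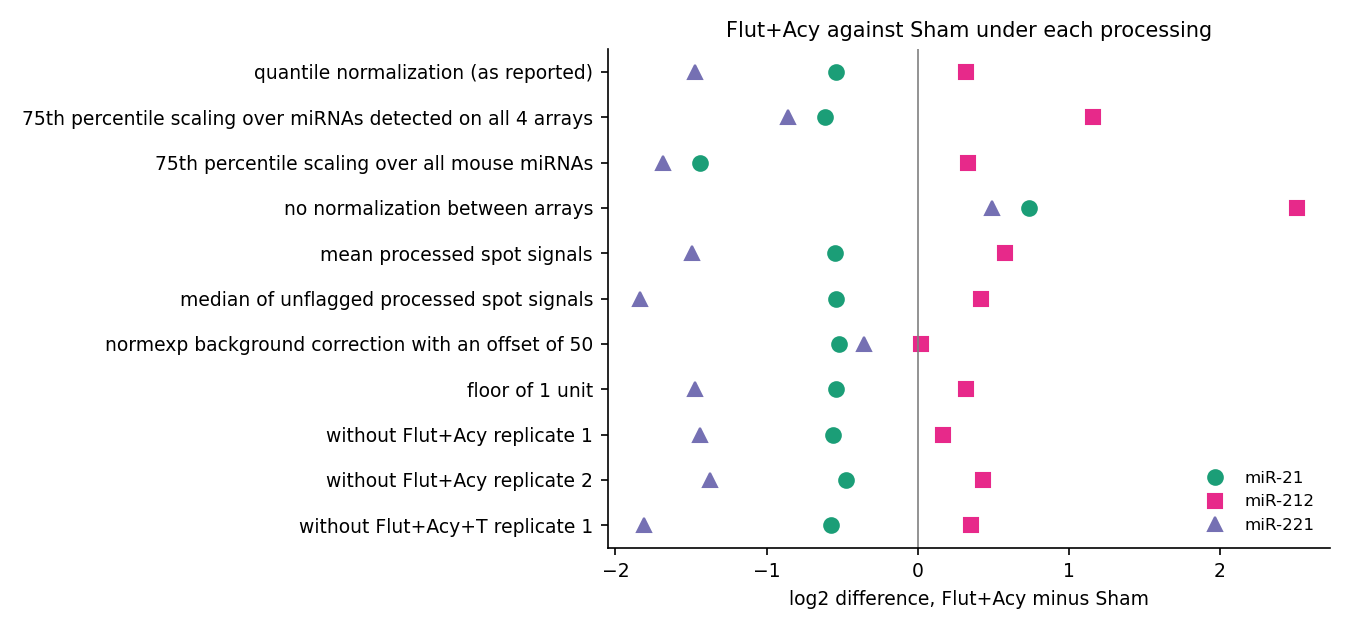
Log2 difference between Flut+Acy and Sham (x axis) for miR-21, miR-212 and miR-221 under quantile normalization, as reported, and under 10 other ways of processing the signals (y axis). miR-21 and miR-221 lie below 0 except without normalization between arrays (0.74 and 0.49), and miR-212 lies above 0 in each, from 0.02 to 2.51.

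Testosterone replacement could be read for miR-21 alone. Its normalized signal was 2858 on Flut+Acy+T, between the 2537 and 2414 of Flut+Acy and the 3600 of Sham. The difference to Flut+Acy was 0.21 ± 0.05 on the log2 scale (limma adjusted p = 0.109) and that to Sham was -0.33 ± 0.06 (limma adjusted p = 0.0849), so neither passed. Both calls and the place between the groups depended on the scaling. With the 75th percentile of the miRNAs that every array detected, the difference to Flut+Acy was -0.14 (limma adjusted p = 0.303) and that to Sham -0.75 (limma adjusted p = 0.0375). With the 75th percentile of all miRNAs, these were -1.24 (limma adjusted p = 0.0162) and -2.69 (limma adjusted p = 0.00924). The difference to Sham also passed with normexp (-0.43, limma adjusted p = 0.0431) and, with the opposite sign, without normalization (1.12, limma adjusted p = 0.0220). Testosterone replacement thus has no settled direction for miR-21 in these data. Before normalization the Flut+Acy+T signal was 2.18 ± 0.278 times that of Sham, where the median ratio of the 76 miRNAs detected on all 4 arrays was 3.77 and 3.95% of them had a lower one. Against the 2 Flut+Acy arrays it was 1.31 ± 0.168 and 1.30 ± 0.165 times as high, beside medians of 1.56 and 1.34.

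The other 4 gave no fold against Flut+Acy+T, since the lowest signal which that array detected lay above theirs. Counted by normalized values all the same, miR-212 was lower by 2-fold or more after testosterone replacement than under Flut+Acy alone. It was 1 of the 4 detected on either side, where 50.8% of 297 miRNAs were that much lower. Against Sham, 1 of the 2 detected on either side, miR-221, was at least 2-fold lower, where 44.5% of 218 were. miR-212 was detected on neither side there and was not counted. None of the 5 that was detected on either side was at least 2-fold higher in either comparison, where 17.5% and 17.9% were. limma passed 1 of the 4 fitted for Flut+Acy+T against Flut+Acy, miR-212, beside 75.2% of all 298, and 2 against Sham, miR-212 and miR-221, beside 65.8%, with 48.3% of the 298 lower, as these 2 were. Each of these calls compares an undetected signal on Flut+Acy+T with another value, and for miR-212 against Sham neither side was detected.

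The miRNAs nearest to miR-21 over the 4 arrays, among the 75 others detected on all of them, were miR-497 and let-7b, with root mean square differences of 0.0969 and 0.101 between centred log2 signals. Their log2 differences between Flut+Acy and Sham were -0.70 for miR-497 and -0.48 for let-7b. With 4 arrays, such closeness is a description only.

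A wider list of 20 miRNAs linked to gonadotropins, cAMP or androgen in gonad, adrenal or prostate cells was also on the array, and either group detected 14 of them. Among the 14, 2 had a signal 2-fold or more above Sham in Flut+Acy and 0 one as far below, where 22.6% and 16.6% of the 283 did, with a median log2 difference of -0.40 beside -0.18 over the 283. miR-200b, which holds back the transcription factors Zeb1 and Zeb2, was detected on both sides: its total signal was 9.69 on Sham and 116 and 135 on Flut+Acy, a log2 difference of 1.02 after normalization (limma adjusted p = 0.0236). The second, miR-96, was not detected on Sham. limma passed 2 as higher, miR-22 (0.15) and miR-200b, beside 25.5% of the 298. It passed 3 as lower, miR-23b (-0.75), miR-99a (-0.84) and let-7c (-0.56), beside 28.5%. For all of these but miR-200b, normalization had left the Flut+Acy pair tied. Their SE of 0.007 thus reflects no measured spread, and their calls carry no weight. By the sign of the difference alone, the miRNAs of this list that passed did not all move in 1 direction.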

How the data were processed

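The authors deposited, for each of 4 single-colour Agilent miRNA arrays on 1 slide, Feature Extraction 9.5.3.1 output with linear intensities after background subtraction, a total signal and error per miRNA and detection flags, not normalized between arrays, and a table of intensities that the authors had quantile-normalized. Here quantile normalization was applied to the total signals of the 567 mouse miRNAs, followed by a floor of 5.46 units (the lowest detected signal of each array, as a median of the 4) and log2. limma 3.58.1 (R 4.3.3) fitted 3 groups to the 298 miRNAs that any array detected, and p-values were adjusted by Benjamini-Hochberg. The only spread is that of the Flut+Acy pair (1 residual degree of freedom), and the lone arrays are assumed to vary like it. A group without detection gives a bound: the brighter group's mean over the higher of the lowest detected signal and the dim signal. Where the dim signal is the higher, as for miR-212 on Sham, this is a ratio and no bound. Named are the 5 miRNAs, the 2 nearest in pattern to any detected on all arrays, others of the same seed, and listed miRNAs with 2-fold changes detected on both sides; miR-96, miR-22, miR-23b, miR-99a, let-7c, miR-202-3p, miR-202-5p and miR-449b were added after their values were seen. The number of arrays limits the precision. The 5 miRNAs and the lists were chosen with earlier results of these data known. The fit was tested on simulated data, for Flut+Acy against Sham, with log2 changes of 2 planted in 60 of 298 miRNAs. It recovered 99.6% of them, with 1.45 false calls on average. Smaller changes, such as that of miR-21, were not simulated, so this says nothing about such calls. Alternatives changed the scaling, background, spot summary, filter, floor, test and arrays used. The real-time RT-PCR of the study is not analysed here.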

Additional observations from a re-analysis of the deposited data

How the results depend on the processing

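For Flut+Acy against Sham, no normalization between arrays was the alternative that turned the sign of miR-21 (1 of 13) and of miR-221 (1 of 12); filters and the floor leave those values as they are. Without normalization between arrays, miR-21 was 0.74 (Flut+Acy minus Sham) and 1.12 (Flut+Acy+T minus Sham) and miR-221 0.49; this leaves the array-wide shift in the values. Flut+Acy+T minus Flut+Acy of miR-21 was -0.14 and -1.24 with scaling to the 75th percentile of the miRNAs that every array detected or of all. The miR-21 row of the authors' table gave 0.38 for Flut+Acy+T minus Sham, but that row does not measure miR-21 alone, as described below. Other causes were not tested.

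Counts of the 5 for the comparisons A (Flut+Acy against Sham), B (Flut+Acy+T against Flut+Acy) and C (Flut+Acy+T against Sham) were 0, 0 and 0 at least 2-fold higher, 1, 1 and 1 lower and 2, 1 and 2 past limma. These 2-fold counts took only those that either group detected, 4, 4 and 2 of the 5. With 75th percentile scaling over all miRNAs, 2, 2 and 2 were lower and 3 passed in B. Taking that percentile only over those every array detected, 1 and 1 were higher in A and B, 0 lower in A and C, and 3 and 1 passed in B and C. Without normalization, 2, 1 and 2 were higher, 0 lower in A and C, and 3 passed in B. With normexp, 0, 0 and 0 were lower and 3 and 4 passed in B and C. In the authors' table B had 2 lower, and 1 and 2 passed in A and B. As its miR-21 row does not measure miR-21 alone, these counts say nothing about miR-21. Mean spot signals passed 1 and 1 in A and C. A floor of 1 unit gave 1 higher in A and 2 lower in B. With no filter, 1 and 1 were higher in B and C, 2 lower in C, and 0 and 1 passed in A and C. Among miRNAs detected on all 4 arrays, which keeps miR-21 alone, 0, 0 and 0 were lower and 1, 0 and 0 passed. The methods' single-factor analysis of variance passed 0, 0 and 0 of the 5, before and after adjustment. Without the Flut+Acy+T array, 1 passed in A, miR-221 (-1.81, limma adjusted p = 0.0151). Leaving out either Flut+Acy array moved none of the 2-fold counts and left no spread for a test. Only the larger shifts are listed here. More of the 5 than as reported also passed limma in A and C without normalization. The same held in A or in C with each 75th percentile scaling.

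No paired analysis was possible because only the Flut+Acy arrays carry replicate numbers. Differences between the members of a seed pair were not run, as 1 partner was undetected in a group.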

Other observations

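The authors' table gave miR-21 values of 2.97 for Sham, 3.05 and 1.89 for the Flut+Acy pair and 3.85 after testosterone replacement, while the median of its own 20 spots in the scanner files was 1059 for Sham, 1654 and 1922 for the Flut+Acy pair and 2589 after testosterone replacement. Across the 599 rows of that table, the ranks of each column followed the median over the spots of every name that begins with the row's name (Spearman's rho 0.999875 to 0.999986, across miRNAs of 1 array) more closely than the median over the spots of exactly that name (0.961 to 0.969). The name miR-21 begins 14 longer names, among them miR-212, so 300 spots would enter in place of 20, with medians of 0.720 for Sham, 2.59 and 3.25 for the Flut+Acy pair and 3.05 after testosterone replacement. miR-132, miR-212, miR-221 and miR-222 begin no longer name. On the array 112 of the 567 mouse names begin a longer one, and 34 of these 112 were detected on all 4 arrays.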
